A study of Homo sapiens with 12 samples.

Results

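MDM2 and 8 other genes of the p53 pathway (MDM4, CDKN1A, BTG2, GDF15, SESN1, TP53I3, RRM2B and ZMAT3) were followed through RNA sequencing of T24 cells, a long-established line from a human bladder cancer. They were taken by gene name from tables that list 60504 genes per library, so 9 of 60504 genes are described, each matching 1 entry. All 9 were present in all 12 libraries.

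The study asked how U11, a small nuclear RNA of the minor spliceosome, changes gene expression in these cells. For the knockout comparison, 2 libraries labelled as knockout of U11, called knockout libraries after their label, stood against 2 libraries of untreated T24. The knockout cells were made with Cas9 and a pair of guide RNAs, and came from clonal cells selected for knockout efficiency, according to the study's methods. For the overexpression comparison, 6 libraries labelled as overexpression of U11 stood against 2 other libraries of untreated T24. These 6 divide into 3 line labels (79, 86 and 87) of 2 libraries. By the study's methods such cells were T24 transfected with a plasmid carrying U11 and then selected as clones, and what the line labels stand for was not given in the sources used here. Their 2 libraries per label, and the 2 controls, came 1 each from 2 library series. No library carried any other treatment. Nothing in the labels says whether libraries of 1 label came from separate cultures, so P values measure only the spread between libraries.

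Abundance is given as TPM, a measure of transcript abundance that corrects for transcript length and sums to the same total in each library. The aligned sequence behind a library was 13.7 to 15.2 gigabases in the knockout comparison and 9.07 to 15.3 gigabases in the overexpression comparison. The libraries of the knockout comparison stood apart from the others. In them the 10 most abundant genes held 45.5% to 49.6% of all TPM, against 7.06% to 7.56% in the overexpression comparison. TPM values were therefore compared only within a comparison.

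U11 itself (RNU11, both entries summed) was 21.4 and 23.8 TPM in the knockout controls, while the knockout libraries had 31.6 and 37.4 TPM. By this measure U11 was higher in both libraries labelled knockout than in both of their controls. By quantitative PCR the study reported significantly less U11 in its knockout cells, and more in its overexpression cells, than in wild-type T24. The libraries are called by their label throughout. Among the overexpression libraries and their controls, U11 was at 0.033 and 0.623 TPM in the controls. Line label 79 had 0.183 and 0.412 TPM, line label 86 had 3.98 and 3.72 TPM, and line label 87 had 61.9 and 53.6 TPM. U11 of line label 79 was within the range of its controls. Untreated T24 thus had 21.4 and 23.8 TPM in 1 comparison and 0.033 and 0.623 TPM in the other. The labels name polyA RNA, and the study's methods name ribosomal RNA depletion. How well such libraries capture a small nuclear RNA was not tested, and the RNU11 entries were not read apart. These values were therefore not taken as a measure of knockout or overexpression.

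The line was checked against marker genes. The keratins KRT7, KRT8, KRT18 and KRT19 were abundant in every library, with 1085 to 6703 TPM for KRT7, and so was the mesenchymal filament VIM at 1259 to 2887 TPM. The uroplakin genes UPK1A, UPK1B, UPK2 and UPK3A, which mark mature urothelium, did not exceed 0.44 TPM, nor did KRT20. Of the 8 urothelial markers listed the other 3, which encode transcription factors, were present in every library, with 2.38 to 17.4 TPM for GATA3, 18.9 to 54.5 TPM for PPARG and 8.41 to 50.9 TPM for FOXA1. The leukocyte marker PTPRC did not exceed 0.50 TPM, the endothelial PECAM1 0.30 TPM and the fibroblast gene DCN 0.12 TPM. Another endothelial marker, CDH5, did not stay low everywhere, with 0.029 TPM in its lowest library and 34.1 TPM in its highest. Within the overexpression comparison both libraries of line label 79 had the most CDH5, and within the knockout comparison both knockout libraries had less than both controls. The part of this in the results was not tested. The macrophage marker CD68 had 1.06 to 6.31 TPM. The epithelial adhesion genes EPCAM and CDH1 did not exceed 2.32 and 0.155 TPM.

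p53 is a transcription factor that is stabilised by DNA damage and other stress and switches on genes for cell cycle arrest, DNA repair and cell death. MDM2 is an E3 ubiquitin ligase that marks p53 for degradation, and MDM4 is its relative, which binds p53 and blocks its activity. MDM2 is itself a p53 target through an internal promoter in its first intron, so that p53 and MDM2 form a feedback loop. Many p53 targets also respond to other transcription factors.

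MDM2 lies on chromosome 12 at chr12:68808172-68850686 (hg38, plus strand). Its internal promoter is shown because it carries the p53 response elements of the feedback loop. The 250 bases before the internal start, chr12:68808767-68809016 on the plus strand (RefSeq, GRCh38.p14), read as follows, with capitals marking the matches to the p53 consensus.
MDM2 internal promoter: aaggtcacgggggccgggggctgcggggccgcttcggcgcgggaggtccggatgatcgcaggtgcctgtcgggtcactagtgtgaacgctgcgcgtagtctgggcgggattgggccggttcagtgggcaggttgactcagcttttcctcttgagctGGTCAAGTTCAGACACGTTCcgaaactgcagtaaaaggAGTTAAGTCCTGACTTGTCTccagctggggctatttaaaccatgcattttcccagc

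The search took the p53 consensus (a pair of adjacent half-sites, 20 bases in all, no spacer) with up to 3 mismatches. The consensus is its own reverse complement, so a match counts for both strands. The first MDM2 match, at chr12:68808923-68808942, had 2 mismatches, and the second, at chr12:68808961-68808980, had 3. RefSeq promoter windows of 300 bases, 250 before and 50 after a start, were found for 8 of the 9 genes. These 8 genes had 14 windows, of which 4 held a match, against 1826 of all 35116 windows (5.2%). The 4 windows belong to 3 genes (MDM2, SESN1 and GDF15), and 2 of them are overlapping MDM2 windows with the same pair of sites. The SESN1 match lay before an internal start, at chr6:109009018-109009037 on the minus strand, with 3 mismatches.
SESN1 match: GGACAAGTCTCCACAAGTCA
A match is a run of letters and not a measured binding site.

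MDM2 was, in the overexpression comparison, the member with the largest difference on the TPM scale, and its libraries disagreed with each other. The controls had 20.1 and 19.7 TPM. Line label 79 had 31.6 and 22.6 TPM, line label 86 had 50.1 and 24.3 TPM, and line label 87 had 20.5 and 63.2 TPM. All 6 overexpression libraries were above both controls, but the first library of line label 87 was close to the higher control while the second was the highest of the 8 libraries. Means were 35.4 ± 17.4 TPM (SD, n = 6) and 19.9 ± 0.284 TPM (SD, n = 2). The log2 fold change on the log2(TPM + 1) scale was 0.67 (SE 0.40, 95% confidence interval -0.24 to 1.59), with an adjusted P of 0.898 (limma, Benjamini-Hochberg over all genes tested). It did not pass the test, unadjusted or adjusted. With 1 mean per line label in place of its 2 libraries, the log2 fold change was 0.78. MDM2 was then called at the unadjusted threshold, with an adjusted P of 0.669 (limma). Averaging TPM takes out the spread between the 2 libraries of a label, which was wide for MDM2, so that P does not measure it. The share of all genes called with these means is not given.

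The high MDM2 libraries did not follow the line label or the library series. In the first series the difference from the control of that series was 0.63 in line label 79, 1.27 in line label 86 and 0.03 in line label 87 (log2). In the second series the same differences were 0.19, 0.29 and 1.63. Line label 86 was highest in the first series and line label 87 in the second. Averaged over the 3 line labels, the difference was 0.64 in the first series and 0.70 in the second. Neither value has a test, since each series holds 1 control.

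**Figure D1:**
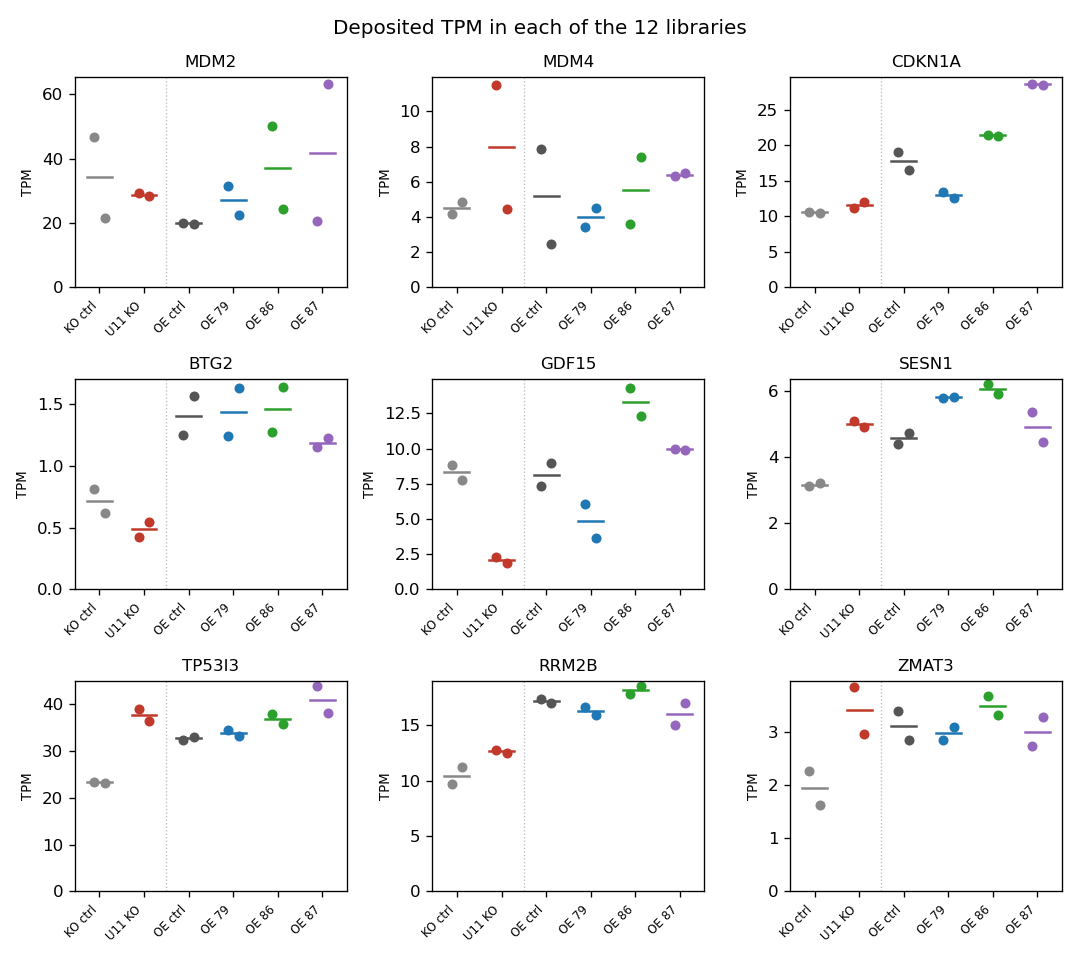
Deposited TPM (vertical axes) of the 9 genes in the 12 libraries, by group on the horizontal axis (KO ctrl and OE ctrl, untreated T24 of the knockout and overexpression comparisons; U11 KO, labelled knockout; OE 79, OE 86 and OE 87, line labels of the overexpression libraries). Points are libraries, bars are means of 2 and the dotted line parts the comparisons, which are not on a common scale. CDKN1A repeats closely within each line label, whereas the points of MDM2 and MDM4 lie far apart.

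The deposited tables give a second measure of each gene, the coverage, the mean number of aligned bases per position of the gene. Divided by the gigabases aligned in the library, it gave a different picture of MDM2, a measure added after seeing the data. The controls had 1.40 and 1.38 coverage per gigabase. Line label 79 had 1.67 and 4.83, line label 86 had 5.47 and 5.63, and line label 87 had 5.60 and 5.64 coverage per gigabase. On this scale the libraries of line labels 86 and 87 lay together above the controls, and 1 library of line label 79 stayed near the controls.

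On log2(coverage per gigabase + 0.1), MDM2 was higher in the overexpression libraries by 1.61 (log2), with an adjusted P of 0.433 (limma). It passed the unadjusted threshold and not the adjusted one. Of the 9 genes, 1 was called on this scale, against 2.07% of all genes. For single line labels the difference in coverage was 0.99 in line label 79, 1.92 in line label 86 and 1.94 in line label 87 (log2). Adjusted P values (limma) were 0.23, 0.108 and 0.0718. MDM2 was called at the unadjusted threshold in line labels 86 and 87, beside backgrounds of 4.19% and 5.38% of all genes. On log2(TPM + 1) the differences for line labels 79, 86 and 87 were 0.41, 0.78 and 0.83. Their adjusted P values were 0.716, 0.614 and 0.493 (limma), and MDM2 was not called in any of them. These values share the same controls.

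The measures differed in direction for MDM2 in the knockout comparison. TPM was 46.8 and 21.6 in the controls and 29.2 and 28.3 in the knockout libraries. The knockout libraries were close to each other and lay between the controls. The log2 fold change was -0.14 (SE 0.36, interval -1.07 to 0.79, adjusted P 0.821). Coverage per gigabase was 8.05 and 2.86 in the controls and 10.3 and 10.4 in the knockout libraries. The log2 difference was 1.09 (adjusted P 0.235, limma) with no overlap. On TPM 60.2% of all genes did not overlap in this comparison, and the share in coverage is not given. Without the first control the TPM difference of MDM2 turned to 0.40, and without the second it was -0.68.

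**Figure D2:**
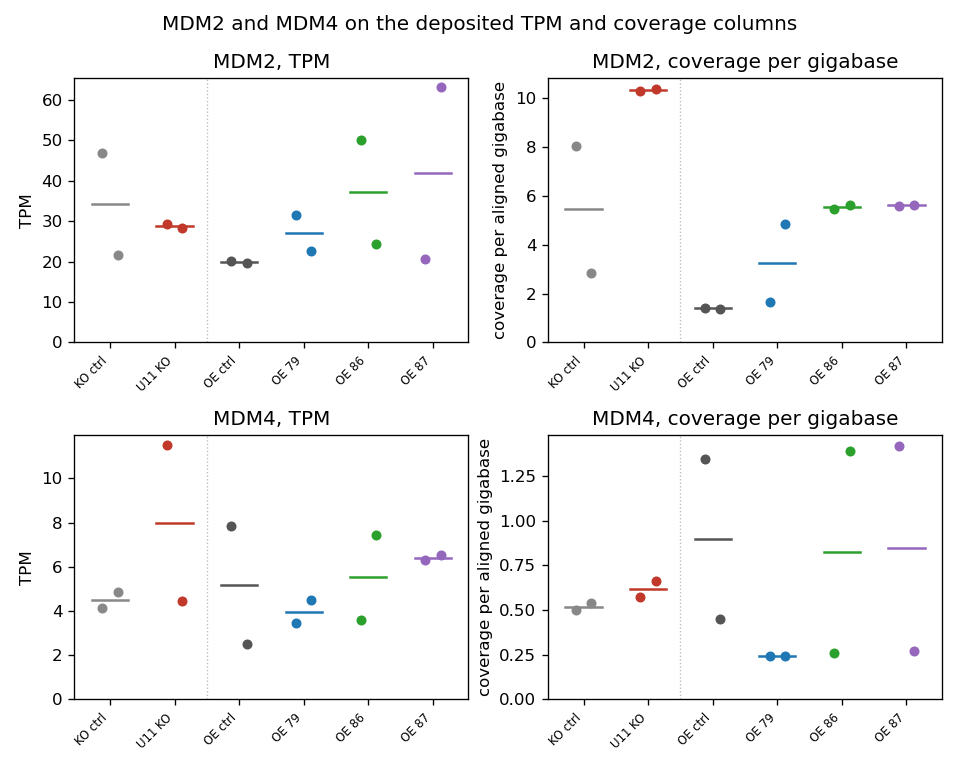
MDM2 (top) and MDM4 (bottom) as deposited TPM (left) and as deposited coverage divided by the aligned gigabases of the library (right), by group as KO ctrl, U11 KO, OE ctrl, OE 79, OE 86 and OE 87; points are libraries and bars are means of 2. In MDM2 the libraries of line labels 86 and 87 lie between 5.47 and 5.64 in coverage but between 20.5 and 63.2 in TPM.

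MDM4 lies on chromosome 1 at chr1:204516379-204558120 (plus strand). It showed the same kind of scatter at a lower level. The overexpression controls had 7.86 and 2.49 TPM. Line label 79 had 3.44 and 4.50 TPM, line label 86 had 3.61 and 7.42 TPM, and line label 87 had 6.31 and 6.52 TPM. The controls enclosed all 6 overexpression libraries, and the log2 fold change was 0.14 (SE 0.37, adjusted P 0.978, limma). MDM4 in the knockout comparison had 4.14 and 4.88 TPM in the controls and 11.5 and 4.47 TPM in the knockout libraries. The difference of 0.59 (SE 0.40, adjusted P 0.384) came from 1 library and was -0.01 without it.

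In coverage per gigabase, MDM4 was also scattered in the overexpression comparison. The controls had 1.34 and 0.447, line label 79 had 0.244 and 0.243, line label 86 had 0.258 and 1.39, and line label 87 had 1.42 and 0.273. Of the 6 overexpression libraries, 2 were above the higher control and 4, among them both of line label 79, were below the lower control. The log2 difference in coverage was -0.63 (adjusted P 0.93), opposite in sign to that in TPM. In the knockout comparison coverage was close within each group, at 0.499 and 0.538 per gigabase in the controls and 0.574 and 0.661 in the knockout libraries. These groups did not overlap, with a log2 difference of 0.21 (adjusted P 0.277, limma). The share of all genes without overlap was 60.2% on TPM and is not given for coverage.

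The disagreement between coverage and TPM was measured as the ratio of coverage per gigabase to FPKM, the deposited length-corrected abundance that TPM rescales. For MDM2 the ratio ran from 0.132 to 0.683 over the 12 libraries, a 5.17-fold range, and for MDM4 from 0.0749 to 0.563, a 7.51-fold range. For CDKN1A it ran from 0.195 to 0.244 and for GDF15 from 0.345 to 0.357. The SD of the log2 ratio over libraries was 0.839 for MDM2 and 0.946 for MDM4, against a median of 0.0583 over 13696 genes. MDM2 exceeded 99.9% and MDM4 99.96% of these genes. What sets the ratio was not tested, and transcript variants of a gene were not analysed here.

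**Figure D3:**
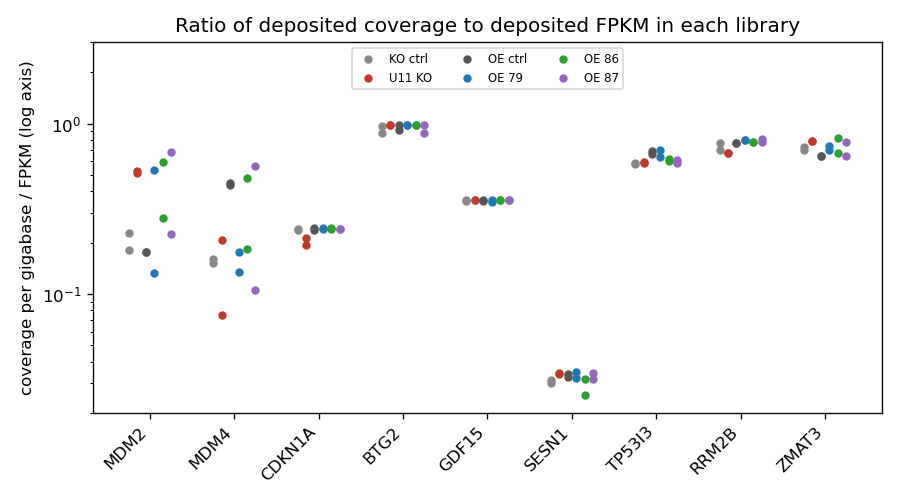
Coverage per gigabase divided by FPKM (vertical log axis) for the 9 genes, with the 12 libraries as points coloured by group (KO ctrl, U11 KO, OE ctrl, OE 79, OE 86, OE 87). The ratio of MDM2 and of MDM4 spreads over more than 5-fold between libraries, while that of GDF15 stays between 0.345 and 0.357.

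The spread between the 2 libraries of a group was also compared with that of other genes. Pooled over the 6 groups, the SD of log2(TPM + 1) was 0.639 for MDM2 and 0.586 for MDM4, above 98.7% and 98.3% of 13793 genes, whose median was 0.142. CDKN1A (0.0689), TP53I3 (0.071), SESN1 (0.0715), RRM2B (0.0787) and BTG2 (0.122) were below that median. ZMAT3 (0.152) and GDF15 (0.207) were above it. In coverage per gigabase the pooled SD (log2) was 0.600 for MDM2 and 0.928 for MDM4, above 96.8% and 98.9% of the genes.

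The genes around MDM2 were examined next. Within 1 megabase of MDM2 the tables listed 55 other entries, of which 12 were tested in the overexpression comparison and 10 had a mean of at least 5 TPM in a group. Those 10 (MDM1, RPSAP12, RAP1B, NUP107, SLC35E3, CPSF6, YEATS4, FRS2, CCT2 and RAB3IP) had log2 fold changes from -0.30 (RAB3IP) to 0.15 (YEATS4), and none was called. RPSAP12 is a pseudogene whose reads may be shared with its parent gene. The called entry among the 12, beside a background of 1.93% of all genes, was CPM, a carboxypeptidase gene on the opposite strand whose end overlaps MDM2 by 8490 bases. CPM had 0.535 and 0.709 TPM in the controls and 0.953 to 2.10 TPM in the overexpression libraries, with a log2 fold change of 0.60 (SE 0.20, adjusted P 0.645, limma). Whether the counting used strand was not given, so reads in the shared bases cannot be told apart. Of 10 neighbours tested in the knockout comparison 1 was called, FRS2, an adaptor of growth factor receptors, at a log2 fold change of 0.99, beside a background of 11.8% of all genes.

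The genes most like MDM2 over the 8 libraries of the overexpression comparison, by Pearson r of log2(TPM + 1) among 11163 genes with a mean of at least 5 TPM, were CCNYL1 (r = 0.96), FUNDC2 (0.96), KIAA1191 (0.95), TRIM52-AS1 (0.95) and ACAD10 (0.92). KIAA1191 had 76.5 TPM in the first library of line label 86 and 91.4 TPM in the second library of line label 87, against 44.0 to 48.0 TPM in the other 6 libraries. In each of the 5 genes this pair of libraries was the highest. CCNYL1 also had 33.4 TPM in the first library of line label 79. The 5 were picked as the highest of 11163 values over 8 libraries, and their r was not tested. In coverage per gigabase the r of these 5 genes with MDM2 was 0.15 to 0.50. All values come from the same 8 libraries.

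CDKN1A encodes p21, an inhibitor of cyclin-dependent kinases that carries out the cell cycle arrest called by p53. It lies on chromosome 6 at chr6:36676460-36687339 (plus strand). It differed between the line labels in opposite directions. The controls had 19.1 and 16.5 TPM. Line label 79 had 13.5 and 12.6 TPM, line label 86 had 21.5 and 21.3 TPM, and line label 87 had 28.7 and 28.6 TPM. The 3 line labels did not overlap with each other or with the controls. Line label 79 was below both controls and the other line labels were above them.

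Against the controls, CDKN1A rose in line label 87 by a log2 fold change of 0.66 (SE 0.09, adjusted P 0.0172, limma), and without the second control it was 0.56 and was not called. In line label 79 the log2 fold change was -0.42 (SE 0.09, adjusted P 0.0373), which fell short of the 1.5-fold threshold. In line label 86 it was 0.26 (SE 0.09, adjusted P 0.3). Between line labels, CDKN1A differed by at most 1.08 on the log2 scale (line label 79 against 87, F test of limma, adjusted P 0.00229). It was lower in line label 79 than in line label 86 by 0.68 (adjusted P 0.0066). Line labels 86 and 87 differed by 0.40 with an adjusted P of 0.0557. Pooled over line labels, the log2 fold change was 0.16 (SE 0.31, adjusted P 0.962).

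The differences of CDKN1A appeared in each library series. In the first series line labels 79, 86 and 87 differed from the control by -0.47, 0.17 and 0.56 (log2), and in the second by -0.37, 0.35 and 0.75. Coverage per gigabase gave 0.67 for line label 87 (adjusted P 0.0145, limma) and -0.39 for line label 79. CDKN1A in the knockout comparison had 10.7 and 10.5 TPM in the controls and 11.2 and 12.1 TPM in the knockout libraries. That log2 fold change was 0.13 (SE 0.11, adjusted P 0.49) and became -0.01 under median ratio scaling and -0.18 in coverage.

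BTG2, an antiproliferative gene of the BTG and TOB family, was the lowest member. It lies on chromosome 1 at chr1:203305491-203309602 (plus strand). The overexpression controls had 1.25 and 1.56 TPM, and the 6 overexpression libraries had 1.15 to 1.64 TPM. The groups overlapped, with a log2 fold change of -0.03 (SE 0.15, adjusted P 0.988). Its knockout comparison had 0.816 and 0.615 TPM in the controls and 0.428 and 0.544 TPM in the knockout libraries. It was below the filter of 1 TPM there and was not tested.

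GDF15 encodes a secreted factor of the TGF-beta superfamily that p53 and other stress pathways induce. It lies on chromosome 19 at chr19:18374731-18389176 (plus strand). It was the member that fell most in the knockout comparison. The controls had 8.84 and 7.80 TPM and the libraries labelled U11 knockout had 2.27 and 1.91 TPM. The values did not overlap, and the log2 fold change was -1.59 (SE 0.14, interval -1.95 to -1.23, adjusted P 0.0127, limma). In coverage per gigabase it was -1.89 (adjusted P 0.0128).

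GDF15 went in the overexpression comparison in opposite directions in different line labels. The controls had 7.32 and 8.96 TPM. Line label 79 had 6.04 and 3.67 TPM, line label 86 had 14.3 and 12.3 TPM, and line label 87 had 9.95 and 9.93 TPM. Line label 79 was below both controls, and line labels 86 and 87 were above both. The log2 fold change was -0.67 (SE 0.21, adjusted P 0.103, limma) in line label 79, 0.65 (SE 0.21, adjusted P 0.236) in line label 86 and 0.27 (SE 0.21, adjusted P 0.564) in line label 87. The first 2 were called at the unadjusted threshold and neither after adjustment. The call in line label 79 was lost without its second library, at -0.37, and without the second control, at -0.54. That in line label 86 was lost without its first library, at 0.55, and without the first control, at 0.52. The difference between line labels 79 and 86 was 1.32 on the log2 scale, and the F test over line labels gave an adjusted P of 0.0159 (limma). Pooled, the log2 fold change was 0.08 (SE 0.40, adjusted P 0.988).

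The 4 remaining genes act in metabolism, DNA synthesis and RNA control. SESN1 encodes a sestrin, which dampens mTORC1 signalling and oxidative stress, and lies at chr6:108986437-109094819 (minus strand). It had 3.13 and 3.22 TPM in the knockout controls and 5.09 and 4.91 TPM in the knockout libraries. The libraries did not overlap, and the log2 fold change was 0.52 (SE 0.12, adjusted P 0.0651, limma), below the 1.5-fold threshold on this scale. With a pseudocount of 0.1 in place of 1 it was 0.64 and was called at the unadjusted threshold (adjusted P 0.0661). It was 0.34 in coverage per gigabase, 0.40 under median ratio scaling and 0.41 with FPKM, each below the fold threshold. SESN1 in the overexpression comparison had 4.40 and 4.75 TPM in the controls and 4.47 to 6.22 TPM in the overexpression libraries, with a log2 fold change of 0.24 (SE 0.13, adjusted P 0.893).

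TP53I3 encodes a quinone oxidoreductase linked to reactive oxygen species, and lies at chr2:24077433-24085861 (minus strand). The whole gene lies opposite FAM228B, which did not exceed 4.50 TPM. TP53I3 rose in the knockout comparison, from 23.4 and 23.2 TPM in the controls to 39.0 and 36.3 TPM in the knockout libraries. Both libraries were above both controls. The log2 fold change was 0.67 (SE 0.10, interval 0.42 to 0.92, adjusted P 0.0299, limma). It was 0.60 in coverage and 0.53 under median ratio scaling, where it was below the fold threshold. The overexpression controls had 32.4 and 33.1 TPM, line label 79 had 34.6 and 33.1 TPM, line label 86 had 37.9 and 35.9 TPM, and line label 87 had 43.9 and 38.1 TPM. All 6 were above both controls, the lowest by under 0.1 TPM, and the log2 fold change was 0.17 (SE 0.11, adjusted P 0.898).

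RRM2B encodes a small subunit of ribonucleotide reductase, which makes deoxynucleotides for DNA repair, and lies at chr8:102204502-102239118 (minus strand). It had 9.66 and 11.2 TPM in the knockout controls and 12.8 and 12.5 TPM in the knockout libraries, a log2 fold change of 0.26 (SE 0.12, adjusted P 0.232). This was 0.16 with FPKM, 0.12 under median ratio scaling and 0.05 in coverage per gigabase, where the groups overlapped. RRM2B in the overexpression comparison had 17.4 and 17.0 TPM in the controls and 15.0 to 18.5 TPM in the overexpression libraries. The log2 fold change of -0.03 had an interval of -0.26 to 0.19, the narrowest of the 9 in that comparison.

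ZMAT3 encodes a zinc finger protein that binds RNA, and lies at chr3:179017223-179072279 (minus strand). It had 2.26 and 1.63 TPM in the knockout controls and 3.85 and 2.97 TPM in the knockout libraries. The log2 fold change of 0.58 (SE 0.18, adjusted P 0.116, limma) fell just short of the 1.5-fold threshold, and in coverage it was 0.79 (adjusted P 0.0804) and was called. With a pseudocount of 0.1 it was 0.78 (adjusted P 0.122) and was called too. It was 0.46 with FPKM and 0.47 under median ratio scaling, and was called with neither. Leaving out each library in turn gave 0.43 to 0.74. The overexpression controls had 3.40 and 2.86 TPM and the overexpression libraries 2.74 to 3.68 TPM, with a log2 fold change of 0.01 (SE 0.13, adjusted P 0.995).

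Calling a gene took 1.5-fold or more and an unadjusted P under 0.05, the thresholds of the study. In the overexpression comparison, 0 of the 9 genes were called (limma), against 1.93% of all 15768 genes tested, and 0 had an unadjusted P under 0.05. Their median log2 fold change was 0.14, against -0.02 over all genes. On TPM, MDM2 and TP53I3 were the 2 members whose libraries did not overlap with the controls, as in 9.87% of all genes. In coverage per gigabase TP53I3 overlapped with its controls and MDM2 did not. In the knockout comparison 2 of the 8 genes tested were called, TP53I3 higher and GDF15 lower, against 11.8% of 14356 genes. Both also passed after adjustment (limma), as did 6.85% of all genes, but neither did so without the first knockout library (adjusted P 0.184 for TP53I3 and 0.139 for GDF15) or without the second (0.139 and 0.128). The median of the 8 was 0.39, against 0.11 over all genes, and under median ratio scaling it was 0.26, against -0.02 over all genes. On TPM, 6 of the 8 did not overlap between the groups, against 60.2% of all genes.

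For single line labels, 1 of 9 was called in line label 79 (GDF15 lower, background 7.95%), 1 of 9 in line label 86 (GDF15 higher, background 3.6%) and 1 of 9 in line label 87 (CDKN1A higher, background 5.13%). These contrasts share the same 2 controls. Between line labels 2 of 9 were called (CDKN1A and GDF15), against 14.6% of all genes. Both were lower in line label 79 than in line label 86 (background 9.8%) and in line label 87 (background 8.7%). Between line labels 86 and 87, 0 of 9 were called (limma, background 6.46%), and 1 (CDKN1A) had an unadjusted P under 0.05.

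**Figure D4:**
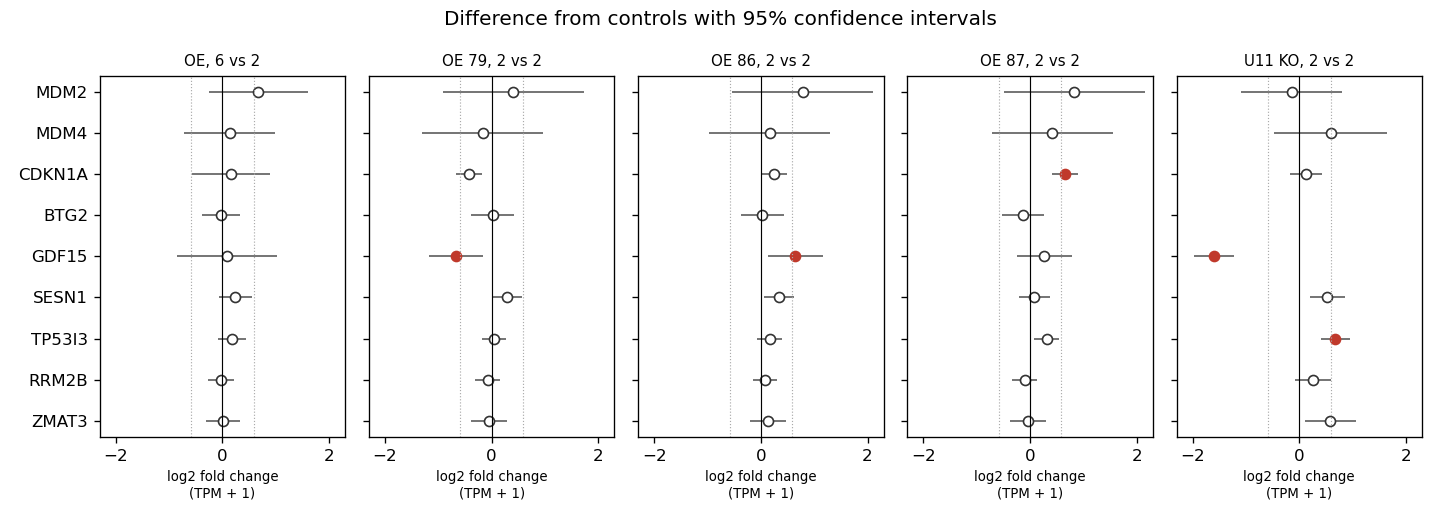
Log2 fold change from controls on log2(TPM + 1) (horizontal axes) of the 9 genes in the overexpression comparison (OE, 6 against 2 libraries), in line labels 79, 86 and 87 (2 against 2, same controls) and in the knockout comparison (U11 KO, 2 against 2). Lines are 95% confidence intervals, red points were called and dotted lines mark a 1.5-fold change. The intervals of MDM2 and MDM4 are wide, and GDF15 has the largest called difference, in the knockout comparison.

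The order of the levels, as mean TPM, was read within each comparison. Over the 8 libraries of the overexpression comparison it was TP53I3 (36.1 ± 3.81 TPM, SD), MDM2 (31.5 ± 16.3), CDKN1A (20.2 ± 6.13), RRM2B (16.9 ± 1.09), GDF15 (9.06 ± 3.40), SESN1 (5.35 ± 0.713), MDM4 (5.27 ± 2.01), ZMAT3 (3.16 ± 0.324) and BTG2 (1.37 ± 0.202). Among neighbours in this order, the ranges of mean ± SD were separate for RRM2B and GDF15 and for ZMAT3 and BTG2. The ranges of the other neighbours overlapped. These SDs pool the controls with the line labels, and the order was not tested. Among the 4 libraries of the knockout comparison MDM2 (31.5 ± 10.8 TPM, SD) and TP53I3 (30.5 ± 8.38) were again the highest and BTG2 (0.601 ± 0.163) the lowest.

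TP73, a relative of p53 that can bind the same elements, did not pass the test in either comparison. It had 4.64 to 7.85 TPM in the knockout comparison and 10.6 to 16.7 TPM in the overexpression comparison, with log2 fold changes of -0.26 (SE 0.21, adjusted P 0.462) and 0.24 (SE 0.13, adjusted P 0.889). TP63 did not exceed 0.03 TPM in any library. Of 18 regulators and relatives of p53 tested (such as kinases, ubiquitin ligases and deubiquitinases), 0 were called in either comparison (limma). Of all genes, 1.93% were called in the overexpression and 11.8% in the knockout comparison. Of the 18, 2 in the overexpression and 6 in the knockout comparison had an unadjusted P under 0.05. Their median log2 fold changes were 0.01 and 0.03, against -0.02 and 0.11 over all genes.

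Other p53 targets were mixed. Of 40 listed, 36 were tested. In the overexpression comparison 0 were called (limma), against 1.93% of all genes, and 2 had an unadjusted P under 0.05. The median log2 fold change of the 36 was 0.03, against -0.02 over all genes. In the knockout comparison 7 were called higher and 3 lower, 27.8% against 11.8% of all genes, with a median of 0.08 against 0.11 over all genes. The largest rises were in PERP, a desmosome and cell death gene, at 1.13 (SE 0.09), PMAIP1, which encodes the cell death protein NOXA, at 1.12 (SE 0.19), and FAS, a death receptor, at 0.99 (SE 0.29). PERP had 24.2 and 24.5 TPM in the controls and 55.8 and 52.9 TPM in the knockout libraries. The largest falls were in TRIM22, an interferon-induced ubiquitin ligase, at -0.94 (SE 0.14), KITLG, the ligand of KIT, at -0.69 (SE 0.14), and CYFIP2, an actin regulator, at -0.59 (SE 0.15). After adjustment 5 of the 36 were called higher and 1 lower, against 6.85% of all genes.

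Through the DREAM complex p21 represses cell cycle genes, and those listed here act mostly in mitosis. All 16 listed were tested. In the overexpression comparison 0 were called, against 1.93% of all genes, and 0 had an unadjusted P under 0.05 (limma). Their median was -0.06, against -0.02 over all genes. TTK (0.95, SE 0.23) and CENPF (0.67, SE 0.22) were called higher in the knockout comparison and PLK1 (-0.60, SE 0.09) lower, 18.8% against 11.8% of all genes. The median of the list was 0.00, against 0.11 over all genes. After adjustment 1 of the 16, PLK1, was called, against 6.85% of all genes. Relatives of the members were also listed. Of 5 tested other sestrins and BTG and TOB genes, 0 were called in the overexpression comparison (limma), against 1.93% of all genes. Of these 5, 0 had an unadjusted P under 0.05 there. TOB1 (0.74, SE 0.13) and BTG1 (0.71, SE 0.12) were called higher in the knockout comparison, 2 of 5 against 11.8% of all genes. RRM1 and RRM2, the other subunits of ribonucleotide reductase, were called in neither comparison (backgrounds 1.93% and 11.8%). Their log2 fold changes were 0.04 and 0.11 in the overexpression comparison and -0.23 and -0.11 in the knockout comparison.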

How the data were processed

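RNA of 12 T24 libraries was sequenced. The authors aligned reads with Hisat2 to hg38 (also named in the submitters' processing notes) and ran Stringtie on each library. The deposited tables hold coverage, FPKM and TPM per gene. The labels name polyA RNA, whereas the study's methods name ribosomal RNA depletion. Groups came from the labels. No counts were among the files used, so no count test and no counting interval was computed. The aligned gigabases of a library were the upper limit of coverage over FPKM.

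Genes with at least 1 TPM in 2 libraries of a comparison were tested with limma 3.58.1 in R 4.3.3 (eBayes with trend) on log2(TPM + 1), each comparison with its own controls, and adjusted with Benjamini-Hochberg over all genes. The line labels were fitted together with the controls. The pipeline was run on simulated data in which all genes had the same spread. That spread was far below that of MDM2 and MDM4, so the run does not bear on these genes. Python 3.11.15 and matplotlib 3.10.9 were used.

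The 9 genes, the gene lists and the tests were chosen with earlier results of these data known. Named genes were the 9 genes, TP63, TP73 and RNU11, from each list and comparison the 3 called genes that rose most and the 3 that fell most, tested genes within 1 megabase of MDM2 with a mean of at least 5 TPM, and the 5 genes most like MDM2. Other genes were named after their values were seen. One gene that the rule chose is not reported here, while counts include it.

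Alternatives were a pseudocount of 0.1, FPKM, median ratio scaling, other filters, no trend, adjusted P, a replicate block, line label means or line labels as groups, and each library left out. Coverage per gigabase was added after seeing the data.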

Additional observations from a re-analysis of the deposited data

Results flagged for a closer look

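CDKN1A and GDF15 differed between the line labels of the overexpression libraries by a test of the difference itself, the F test of limma over the 3 line labels. The largest difference of CDKN1A was 1.08 on the log2 scale (13.5 and 12.6 TPM in line label 79 against 28.7 and 28.6 TPM in line label 87), with an adjusted P of 0.00229. The largest difference of GDF15 was 1.32 (6.04 and 3.67 TPM in line label 79 against 14.3 and 12.3 TPM in line label 86), with an adjusted P of 0.0159. Between line labels 14.6% of all genes were called. What the line labels stand for was not given in the sources used here, and a difference between lines cannot be told apart from one between their U11 levels.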

How the results depend on the processing

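Of 100 alternative values of the 6 counts of called genes, 81 stayed within 1.5 times the reported count. Apart from the shares stated above, the share of all genes called is not given for these settings. Most of these counts therefore have no background beside them. In the overexpression comparison the count of 0 became 1 (MDM2) with the mean of each line label and 1 with coverage per gigabase. In the knockout comparison the count of 2 became 4 with a pseudocount of 0.1 (SESN1 and ZMAT3 were added), 1 with FPKM and 1 with median ratio scaling. With FPKM or adjusted P the count of 1 became 0 in line label 79 and 0 in line label 86, while coverage gave 2 in line label 86 and 2 in line label 87. Leaving out each library in turn gave 0 in the overexpression comparison, 2 to 4 in the knockout comparison, 0 to 1 in line label 79, 0 to 1 in line label 86, 0 to 2 in line label 87 and 2 between line labels. CDKN1A in line label 87 lost its call, at 0.56, without the second control. GDF15 in line label 79 lost its call at -0.54 without the second control and at -0.37 without the second library of that label, and in line label 86 at 0.55 without its first library and at 0.52 without the first control. Without the second knockout library MDM4 was called, at 1.18. Where a fit left 1 library in a group, that library was assumed to vary like the others. The causes were not tested.

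With a replicate block (replicate number in the knockout comparison, library series in the overexpression comparison) the counts were 0, 2, 1, 1, 1 and 2, so the block changed no count of calls at the unadjusted threshold. Deviations from the group means of libraries of 1 series correlated at 0.05 to 0.14 over genes, and those of 1 knockout replicate number at 0.02, so the numbers were not taken as pairs. Passes after adjustment (limma) were less stable. In the knockout comparison the adjusted P of TP53I3 was 0.0971 with the block, 0.0546 with median ratio scaling and 0.112 with no filter, and that of GDF15 was 0.0823 with no filter. In line label 87 the adjusted P of CDKN1A was 0.108 and 0.101 without the first or second library of that label and 0.0847 without the second control. Between line labels that of GDF15 was 0.0507 with no filter and 0.0607 without the first library of line label 86.

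Signs turned in 14 of 360 values for single genes. With coverage, MDM4 in the overexpression comparison became -0.63, RRM2B 0.0024, and in the knockout comparison MDM2 became 1.09 and CDKN1A -0.18, while median ratio scaling gave CDKN1A -0.0101. Leaving out each library in turn gave, in the overexpression comparison, -0.54 to 0.81 for MDM4, -0.051 to 0.29 for GDF15, -0.12 to 0.064 for BTG2 and -0.083 to 0.11 for ZMAT3. In the knockout comparison it gave -0.68 to 0.40 for MDM2 and -0.0081 to 1.18 for MDM4. MDM4 was lowest without the second control of the overexpression comparison, and GDF15 turned without either library of line label 86 or without the first control. TPM carries no read counts, so the number of reads behind the low values of BTG2 and ZMAT3 is unknown. Their coverage per gigabase ran from 0.281 to 0.643 for BTG2 and from 0.735 to 2.03 for ZMAT3 over the 12 libraries.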

Other observations

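Of 36 other p53 targets tested, 10 were called between line labels, 27.8% against 14.6% of all genes. The genes named next were chosen after their values were seen. TRIM22 had 20.1 and 18.8 TPM in the controls, 3.14 and 3.31 TPM in line label 79, 10.2 and 12.4 TPM in line label 86 and 13.2 and 14.2 TPM in line label 87. Its log2 fold change in line label 79 was -2.27 (SE 0.11). FAS had 15.8 and 19.6 TPM in the controls and 3.21 and 6.38 TPM in line label 79, a log2 fold change of -1.74 (SE 0.33, adjusted P 0.0237, limma). KITLG had 45.6 and 43.6 TPM in the controls and 89.6 and 99.0 TPM in line label 87, a log2 fold change of 1.06 (SE 0.08). Of the 36 other p53 targets tested, 1 was called higher and 6 lower in line label 79, which is 19.4% against 7.95% of all genes. In line label 86, 2 were called higher and 1 lower, 8.33% against 3.6%, and in line label 87, 1 higher and 2 lower, 8.33% against 5.13%. These contrasts share the same 2 controls.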
